A study of Mus musculus with 2 samples.

Results

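H3K4me3 peaks at the starts of long noncoding genes that stand apart from coding promoters were examined in lung ILC2s, the group 2 innate lymphoid cells that release type 2 cytokines in allergic airways. The genes were those of the GENCODE annotation with the types lincRNA, antisense, bidirectional promoter lncRNA, macro lncRNA or sense intronic, on autosomes, with no start of a protein-coding transcript within 2000 bp of any of their own starts. Of 8641 autosomal genes of the 5 types, 6858 met this rule and are called separate long noncoding genes here, and 1783 lay near a coding start. The 6858 genes comprised 4756 lincRNA, 1805 antisense, 294 sense intronic and 2 macro lncRNA genes and 1 bidirectional promoter lncRNA. A peak within 1000 bp of any annotated start of a gene was its start peak. By this rule 303 of 42126 peaks of the offspring of PBS-treated mothers and 275 of 51610 of the offspring of OVA-treated mothers were start peaks of separate long noncoding genes.

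All mice were C57BL/6J. Asthmatic mothers were sensitized with repeated injections of 100 µg of ovalbumin (OVA) in alum. They then received repeated intranasal doses of 500 µg of OVA during gestation, between days 4 and 17. Control mothers received PBS and alum without OVA. The adult offspring of asthmatic and control mothers are called OVA F1 and PBS F1 here. H3K4me3 was profiled by CATCH-seq, which adds carrier material to a native ChIP-seq so that few cells suffice, in about 3000 lung ILC2s of these offspring at 8 weeks, sorted as CD45+, Lin- and ST2+ cells. The study also describes adult lung ILC2s as CD90.2+, and whether that marker was used for this sort was not stated in the sources used here. There was 1 library per group, and the number of animals behind each was not stated in the labels, so no value has a replicate, no test between groups was possible, and intervals are exact 95% intervals that cover counting error only. In pooled cells, fewer cells with a mark and less of the mark per cell cannot be told apart. Among 10 ILC2 marker genes, 8 had a start peak in PBS F1 and 6 in OVA F1, beside 51.9% and 43.1% of all coding genes. Il1rl1, Rora, Il2ra, Thy1, Areg and Il17rb had one in both lists, and Gata3 and Il7r in PBS F1 alone. Markers of T cells, B cells, macrophages, neutrophils and fibroblasts had none in either list. Of 5 epithelial markers 2 (Epcam and Cdh1) and of 4 endothelial markers 1 (Kdr) had one in PBS F1 and none in OVA F1, and their part in the results below was not tested.

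Long noncoding genes are mostly transcribed by RNA polymerase II, many of their RNAs are capped and spliced like mRNAs, and many are expressed in few cell types. H3K4me3 is laid down around the first nucleosomes of active or poised promoters, most strongly where CpG dinucleotides are dense and unmethylated. The mark by itself says nothing of the RNA that is made, and a peak near a start need not belong to that start.

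The sequences below show what lay under peaks of high and low CpG content, on which the results turn. All have single-copy summits, as defined further on, and none stands for the copied peaks. Each is 300 bases of GRCm38 around the summit of the peak in PBS F1, on the strand of the gene, with every CpG in capitals. The first 3 are summits dense in CpGs, of Mir155hg at chr16:84703326-84703625 (plus strand), Snhg12 at chr4:132308688-132308987 (plus strand) and Pvt1 at chr15:62037922-62038221 (plus strand).
Mir155hg: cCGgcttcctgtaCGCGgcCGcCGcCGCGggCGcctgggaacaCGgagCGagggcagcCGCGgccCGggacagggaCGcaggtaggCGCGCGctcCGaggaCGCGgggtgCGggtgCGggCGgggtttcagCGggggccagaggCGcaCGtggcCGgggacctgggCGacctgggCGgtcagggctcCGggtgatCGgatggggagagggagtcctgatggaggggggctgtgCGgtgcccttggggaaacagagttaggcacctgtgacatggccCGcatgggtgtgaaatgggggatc
Snhg12: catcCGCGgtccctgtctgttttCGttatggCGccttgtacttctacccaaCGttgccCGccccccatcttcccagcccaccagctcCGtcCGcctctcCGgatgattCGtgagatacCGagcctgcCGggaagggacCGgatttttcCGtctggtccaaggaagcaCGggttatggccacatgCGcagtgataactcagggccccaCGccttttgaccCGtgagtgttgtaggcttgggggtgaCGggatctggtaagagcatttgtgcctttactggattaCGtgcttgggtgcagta
Pvt1: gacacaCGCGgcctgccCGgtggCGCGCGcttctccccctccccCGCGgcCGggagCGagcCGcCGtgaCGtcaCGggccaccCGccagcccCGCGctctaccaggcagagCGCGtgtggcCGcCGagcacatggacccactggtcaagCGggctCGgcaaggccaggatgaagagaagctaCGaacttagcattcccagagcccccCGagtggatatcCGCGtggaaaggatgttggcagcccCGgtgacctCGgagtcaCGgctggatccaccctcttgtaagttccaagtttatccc
They held 33, 20 and 30 CpGs. The annotated 5′ end of Pvt1 was base 65 of its sequence.

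The next 2 lie at marked starts with few CpGs, of Gm14005 at chr2:128429344-128429643 (minus strand) and AW112010 at chr19:11050021-11050320 (minus strand).
Gm14005: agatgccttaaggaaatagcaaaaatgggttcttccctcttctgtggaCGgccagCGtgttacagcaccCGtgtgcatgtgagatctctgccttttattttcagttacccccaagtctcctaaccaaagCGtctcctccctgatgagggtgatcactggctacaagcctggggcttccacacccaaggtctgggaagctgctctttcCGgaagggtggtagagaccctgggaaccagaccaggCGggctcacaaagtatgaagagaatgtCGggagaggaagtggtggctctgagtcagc
AW112010: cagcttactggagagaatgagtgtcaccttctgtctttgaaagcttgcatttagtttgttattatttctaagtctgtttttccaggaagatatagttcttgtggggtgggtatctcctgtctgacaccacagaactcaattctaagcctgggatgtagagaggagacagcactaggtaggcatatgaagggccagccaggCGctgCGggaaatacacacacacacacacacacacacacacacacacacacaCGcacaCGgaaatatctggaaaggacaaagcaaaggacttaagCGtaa
They held 7 and 5 CpGs. The last sequence is from Gm43221, at chr3:108999421-108999720 (plus strand), the gene whose single-copy start peak had the highest −log10 q in OVA F1.
Gm43221: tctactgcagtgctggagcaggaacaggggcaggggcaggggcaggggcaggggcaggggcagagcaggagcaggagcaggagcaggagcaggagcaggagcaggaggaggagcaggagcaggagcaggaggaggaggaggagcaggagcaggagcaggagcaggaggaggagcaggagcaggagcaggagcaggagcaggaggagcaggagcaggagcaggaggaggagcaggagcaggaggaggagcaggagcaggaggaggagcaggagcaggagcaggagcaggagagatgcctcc
It held no CpG, consisted of short GC-rich units repeated end to end, and 91.0% of it was masked as repeat in the reference.

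Few separate long noncoding genes carried a start peak. In PBS F1 277 of 6858 genes did so (4.04%, 3.59 to 4.53%), and in OVA F1 249 did (3.63%, 3.20 to 4.10%). With each list limited to its 10000 strongest peaks the shares were 1.21% and 0.642%. Over all 51229 autosomal genes the shares were 26.5% and 22.3%. Protein-coding genes reached 51.9% and 43.1%, and long noncoding genes near a coding start 56.8% and 46.6% (54.4 to 59.1% and 44.2 to 48.9%). A start peak in both lists was found at 177 separate genes, in PBS F1 alone at 100, and in OVA F1 alone at 72. These 1-list shares of 1.46% and 1.05% stood beside 5.02% and 0.841% over all autosomal genes. Separate genes were marked less often than genes as a whole. Their share marked in OVA F1 alone, with an interval of 0.822 to 1.32%, could not be told apart from that of all genes. Counted over marked genes only, the 1-list genes were a larger part here. Of genes marked in OVA F1, 72 of 249 separate genes and 431 of 11445 autosomal genes were marked in that list alone. In PBS F1 the numbers were 100 of 277 and 2573 of 13587.

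Long noncoding genes nearer to a coding start than the rule allows are given for comparison. Within 2000 bp a peak of the coding promoter can itself lie within 1000 bp of the noncoding start, and the summits of such genes lay at a median of -179 bp in PBS F1 and -170 bp in OVA F1, upstream of their own start, so a fall of the share with distance is in part built in. With a coding start more than 500 and up to 1000 bp away, 163 of 322 genes (50.6%, 45.0 to 56.2%) had a start peak with a single-copy summit, as defined in the next paragraph, in PBS F1. From 1000 to 2000 bp the number was 46 of 282 (16.3%, 12.2 to 21.2%), and from 2000 to 3000 bp, just past the limit of the rule, 8 of 189 (4.23%, 1.84 to 8.17%). In OVA F1 the numbers were 129 of 322 (40.1%), 31 of 282 and 7 of 189 (3.70%). At over 3000 to 5000 bp the numbers were 9 of 318 (2.83%, 1.30 to 5.30%) and 3 of 318 (0.943%, 0.195 to 2.73%), whose intervals overlapped those of the range before. In wider ranges the shares were close to each other, with 17 of 507 genes (3.35%) at over 2000 to 5000 bp, 52 of 1470 (3.54%) at over 5000 to 20000 bp and 103 of 2689 (3.83%) at over 20000 to 100000 bp in PBS F1, and with 1.97%, 1.84% and 2.23% in OVA F1. The intervals of these 3 shares overlapped in each list. Genes more than 100000 bp from any coding start were marked at 20 of 2192 (0.912%, 0.558 to 1.41%) in each list, which lay below the intervals of the 3 nearer ranges in PBS F1.

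**Figure D1:**
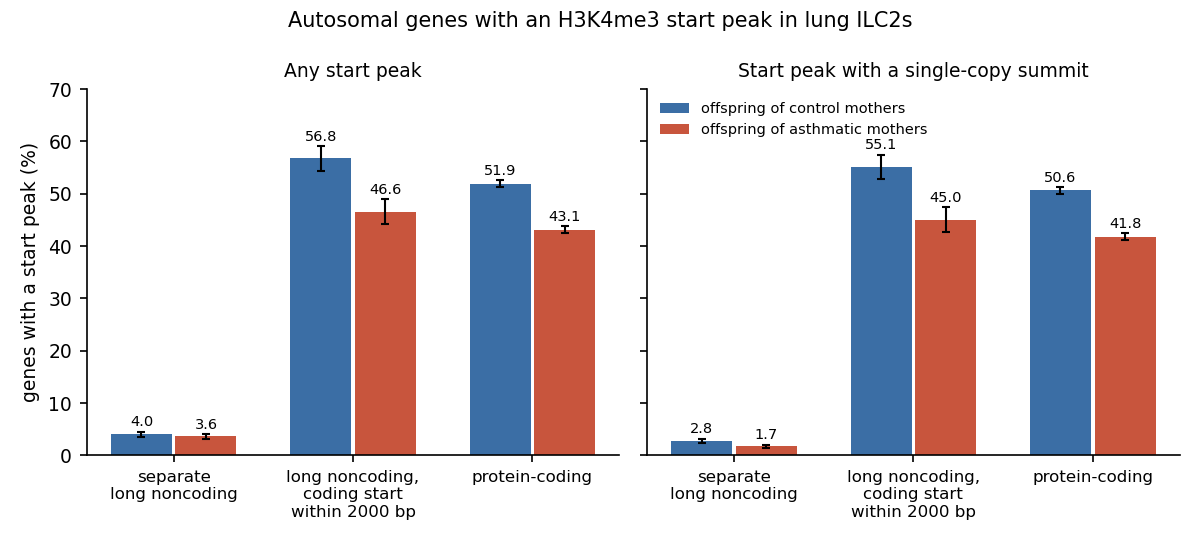
Share of autosomal genes with an H3K4me3 start peak (vertical axis, %) for separate long noncoding genes, long noncoding genes near a coding start and protein-coding genes, for any start peak (left) and for single-copy summits (right), in PBS F1 (offspring of control mothers, blue) and OVA F1 (offspring of asthmatic mothers, red); bars on the columns are exact Clopper-Pearson 95% intervals. Separate long noncoding genes stay at 4.04% or less in every column, against 41.8% or more for the other classes.

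Many of the peaks at separate long noncoding genes lay on copied sequence. A summit was called copied when the 75 bases around it, the length of 1 read of a pair, occurred at more than 1 place on the 21 assembled chromosomes, and single-copy otherwise. Of the start peaks of separate long noncoding genes, 95 of 303 (31.4%, 26.2 to 36.9%) had a copied summit in PBS F1 and 144 of 275 (52.4%, 46.3 to 58.4%) in OVA F1. At coding starts the shares were 2.58% and 3.58%, and among peaks over 5000 bp from any annotated start 94.6% and 95.6%. Start peaks of separate genes thus stood between these classes. Over all peaks of the lists the copied shares were 65.4% in PBS F1 and 77.2% in OVA F1, above those of the separate genes. The copied summits had a median of 239 places in PBS F1 and 188 in OVA F1, and over 100 places held for 53 of 95 and 81 of 144 of them. A read from such a summit has no unique place by its own sequence, so these peaks were described apart from the rest.

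With copied summits set aside, the lists differed more. A start peak with a single-copy summit was found at 192 genes (2.80%, 2.42 to 3.22%) in PBS F1 and at 117 (1.71%, 1.41 to 2.04%) in OVA F1, beside 25.0% and 20.4% of all autosomal genes and 50.6% and 41.8% of protein-coding genes. Both lists had one at 101 genes. At 85 genes (1.24%) a single-copy peak of PBS F1 faced no start peak of any kind in OVA F1, and at 11 genes (0.160%) the reverse held, beside 4.71% and 0.242% of all autosomal genes. Counted over genes with a single-copy start peak in the list itself, these were 85 of 192 and 11 of 117. Over all autosomal genes the numbers were 2412 of 12784 and 124 of 10467. The bases within 1000 bp of the starts of separate long noncoding genes made up 15.1 Mb, 0.631% of the autosomal sequence, and held 13.8 single-copy peaks per Mb in PBS F1 and 8.67 in OVA F1. Over all autosomes there were 5.92 and 4.82 per Mb, and around coding starts 193 and 152. With copied peaks counted as well, the densities at separate genes were 20.1 and 18.2 per Mb, against 16.1 and 19.6 over all autosomes, so that in OVA F1 the order turned.

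The share of marked genes also differed by the type and place of the gene. In PBS F1 a single-copy start peak was present at 149 of 4756 lincRNA genes (3.13%, 2.66 to 3.67%) and 43 of 1805 antisense genes (2.38%, 1.73 to 3.20%), and in OVA F1 at 2.04% and 1.11%. None of the 294 sense intronic genes had one in either list, which allows a share of up to 1.25% each. Genes whose 5′ end lay outside coding genes were marked at 162 of 4919 (3.29%, 2.81 to 3.83%), and genes inside a coding gene on the opposite strand at 27 of 1578 (1.71%, 1.13 to 2.48%), with 1.99% and 1.08% in OVA F1. Genes with more than 1 annotated transcript were marked at 88 of 1402 (6.28%, 5.06 to 7.68%) and genes with 1 transcript at 104 of 5456 (1.91%, 1.56 to 2.30%), with 3.92% and 1.14% in OVA F1, although a gene with more starts also had more places to hold a peak. Of the single-copy start peaks, 160 of 208 in PBS F1 and 96 of 131 in OVA F1 had no other annotated start within 1000 bp. A protein-coding transcript start lay that near to 2 and 1 of them, and a start of another transcript of a coding gene to 14 and 11.

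CpG content differed between marked and unmarked genes. It was measured as the ratio of CpGs observed to those given by the C and G content, over 1000 bases at the 5′ end. The median ratio was 0.566 (0.514 to 0.601) at the 192 genes with a single-copy start peak in PBS F1, 0.595 (0.513 to 0.695) at the 117 in OVA F1, and 0.216 (0.213 to 0.220) at the 6509 genes with no start peak. Genes with copied start peaks alone, 141 in all, had 0.269 (0.239 to 0.295). Among 2914 genes with a ratio under 0.2, 13 (0.446%, 0.238 to 0.762%) had a single-copy start peak in PBS F1, and among 213 genes with 0.6 or more, 82 (38.5%, 31.9 to 45.4%) did. In OVA F1 the corresponding values were 10 genes (0.343%) and 58 genes (27.2%, 21.4 to 33.7%). The CpG-rich class was rare in this group, with 213 of 6858 separate long noncoding genes against 9777 of 20722 protein-coding genes.

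Within each class of CpG content the share of marked genes was lower among separate long noncoding genes than among coding genes. At a ratio of 0.6 or more, 82.7% (81.9 to 83.4%) of protein-coding genes had a single-copy start peak in PBS F1 and 70.7% in OVA F1, and in each of the 4 CpG classes and both lists the interval of the coding genes lay above that of the separate long noncoding genes. Of the 213 CpG-rich separate genes, 112 had no start peak in either list, and 13 had copied peaks alone. The classes are wide, and the median over marked coding genes was higher, at 0.747 (0.743 to 0.751) in PBS F1, so CpG content was not equal within a class, and a closer match was not tested.

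**Figure D2:**
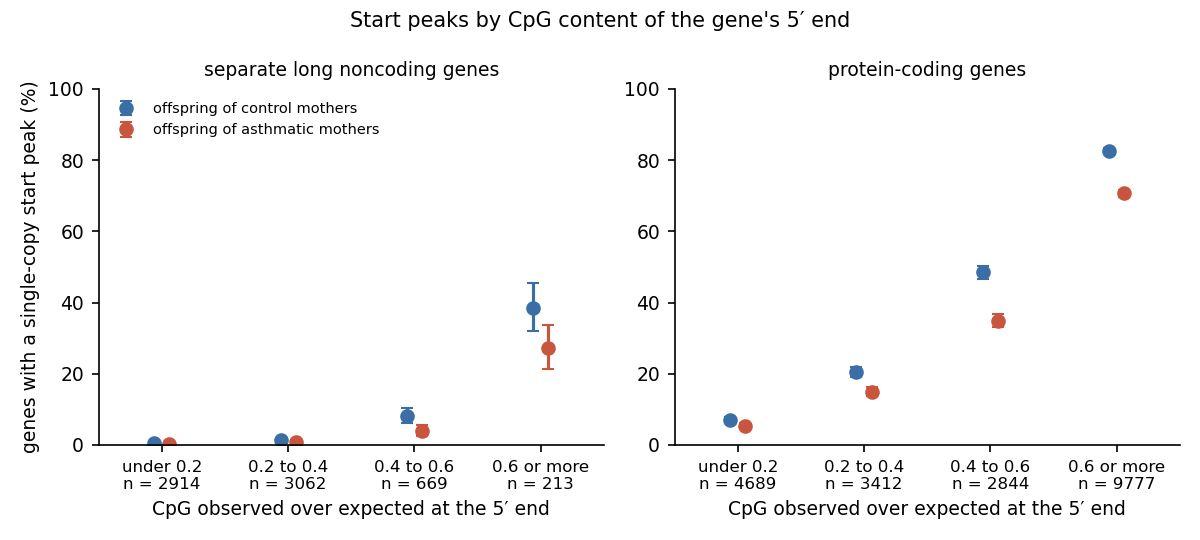
Share of genes with a single-copy start peak (vertical axis, %) by the CpG observed over expected ratio at the 5′ end (horizontal axis, 4 classes with their number of genes), for separate long noncoding genes (left) and protein-coding genes (right), in PBS F1 (offspring of control mothers, blue) and OVA F1 (offspring of asthmatic mothers, red); bars are exact Clopper-Pearson 95% intervals. Separate long noncoding genes rise from 0.446% to 38.5% in PBS F1, below the coding genes in every class.

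Short sequence motifs were searched on both strands in the 300 bases from 250 before to 50 after the 5′ end. The ETS core CCGGAA was present at 53 of 208 genes with a single-copy start peak in either list (25.5%, 19.7 to 32.0%), at 6.75% of all separate long noncoding genes and at 28.9% of marked coding genes. The GC box GGGCGG was present at 93 of the 208 (44.7%, 37.8 to 51.7%), at 8.81% of all separate genes and at 63.0% of marked coding genes. Both motifs contain a CpG. The GATA core AGATAA, without a CpG, was present at 9.62% (5.97 to 14.5%) of marked and 15.7% of all separate genes, the RUNX core TGTGGT at 14.9% (10.4 to 20.5%) and 22.1%, and the TATA box TATAAA at 8.65% (5.21 to 13.3%) and 16.5%. The CCAAT box differed little, at 38.0% and 36.2%. The cyclic AMP response element TGACGTCA was found at 3.37% of marked and 0.860% of all separate genes, and the YY1 motif ATGGCGGC at 1.44% and 0.481%, from 7 and 3 marked genes, and both of these hold a CpG as well. No motif of the search contains another.

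Summits lay downstream of the start at 121 of 192 genes (63.0%) in PBS F1 and 71 of 117 (60.7%) in OVA F1, with a wider spread than at coding genes. For the single-copy peak with the highest −log10 q of each gene, the summit lay a median of 90 bp (29.0 to 145) downstream of the nearest start in PBS F1 and 103 bp (43.0 to 151) in OVA F1. At protein-coding genes the medians were 145 and 144 bp. The spread was wider at the separate genes, with quartiles of -151 and 294 bp against 37.0 and 246 bp in PBS F1. A summit 1 to 300 bp downstream, over the first nucleosomes of the transcript, was found at 73 of 192 genes (38.0%, 31.1 to 45.3%) against 60.4% of coding genes, and a summit more than 500 bp upstream at 16 genes (8.33%) against 2.93%. The annotated start nearest to the summit was the 5′ end itself at 134 of 192 genes (69.8%) in PBS F1 and 85 of 117 (72.6%) in OVA F1, and at 182 of the 192 the peak lay within 1000 bp of the 5′ end. The other 10 included Mir670hg, Lncpint, Gm14005 and AW112010, whose peaks lay at inner starts.

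**Figure D3:**
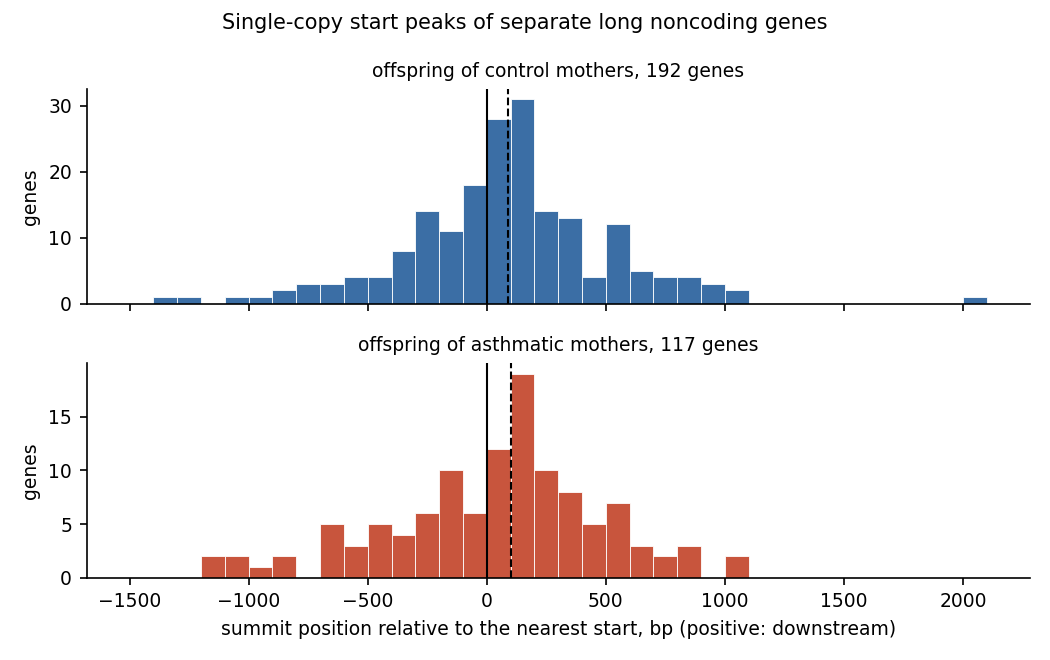
Number of separate long noncoding genes (vertical axis) by the position of the summit of their single-copy start peak relative to the nearest annotated start (horizontal axis, bp, positive downstream), in PBS F1 (top) and OVA F1 (bottom); the solid line marks the start and the dashed line the median. The medians of 90 and 103 bp lie downstream of the start, with wide flanks on both sides.

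Single-copy peaks at separate long noncoding genes were narrower and lower than those at coding starts. The median width was 365 bp (332 to 411) against 481 bp at coding starts in PBS F1, and 255 bp (223 to 297) against 323 bp in OVA F1. The number of fragments at a summit was solved from the deposited fold and −log10 p and had medians of 20 (19 to 22) and 15 (14 to 16), against 24 and 16 at coding starts. The widest peaks and highest numbers lay in a single region of chromosome 17 that resembles the ribosomal RNA genes, at Gm26917, Gm42418 and AY036118. There the summit of the peak shared by Gm42418 and AY036118 held 142 fragments in PBS F1 and 96 in OVA F1. Its fold was only 2.21 and 2.23, because the background of the caller was 63.8 and 42.6 fragments, against a smallest background of 1.83 and 1.57 in the lists. These genes count as single-copy in both lists because copies were sought on the assembled chromosomes only. Copies in sequence outside the assembly were not counted, so the single-copy label is not secure for this region. The next widest domains with a single-copy start peak, of peaks joined up to 1000 bp apart whether copied or not, lay at Gm15655 with 1997 bp in PBS F1 and 1560 bp in OVA F1, which covered a coding start of Maf in PBS F1 and ended 3 bp from it in OVA F1, at Gm11399 with 1940 bp in PBS F1 and at BC002059 with 1633 bp in OVA F1, where 1 of 3 start peaks was single-copy. At Gm11399 the fold was also low, 2.71 in PBS F1 and 2.97 in OVA F1, on high backgrounds of 18.2 and 14.8 fragments.

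The peaks of both lists were compared by position and by fragments. Of the start peaks of PBS F1, 180 of 303 (59.4%, 53.6 to 65.0%) shared at least 1 base with an OVA F1 peak, and 193 of 275 (70.2%, 64.4 to 75.5%) did in the opposite direction. With single-copy summits these shares were 105 of 208 (50.5%, 43.5 to 57.5%) and 118 of 131 (90.1%, 83.6 to 94.6%), and at coding starts 71.1% and 97.3%. With copied summits they were 75 of 95 (78.9%, 69.4 to 86.6%) and 75 of 144 (52.1%, 43.6 to 60.5%). Copied start peaks of coding genes overlapped at 83.2% and 77.3%, and peaks over 5000 bp from any start, most of them copied, at 73.5% and 52.7%. The copied peaks of separate genes in OVA F1 thus overlapped about as often as those far from any start. Overlap followed the −log10 q of the peak. Among single-copy start peaks of PBS F1, 33 of 110 (30.0%, 21.6 to 39.5%) were overlapped where the −log10 q was at most 9.67, 40 of 61 (65.6%, 52.3 to 77.3%) up to 14.9 and 32 of 37 (86.5%, 71.2 to 95.5%) above. Of coding start peaks in the same ranges, 38.3%, 3164 of 3957 and 95.2% were.

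At the 101 separate genes with a single-copy start peak in both lists, 95 had fewer summit fragments in OVA F1 and 6 had more. More fragments in OVA F1 were found at 118 of 8539 such coding genes and 12 of 789 such long noncoding genes near a coding start. The strongest single-copy start peak of each list was taken, and at 6 of the 101 genes, among them Gm14005 and D230017M19Rik, the 2 peaks did not overlap. Among the other 95 genes, 90 had fewer fragments in OVA F1 and 5 had more. The median ratio of asthmatic to control was 0.645 (0.611 to 0.681), with medians of 24 and 15 fragments. Protein-coding genes had a median ratio of 0.609 (0.607 to 0.613). The smallest background of the lists, 1.83 and 1.57 fragments, had a ratio of 0.858. The smallest peak widths were 190 bp in PBS F1 and 156 bp in OVA F1, so this ratio does not compare equal lengths. Taken over those widths, the smallest background was 96.1 per 10 kb in PBS F1 and 100 in OVA F1. A ratio of 0.5 or less was found at 16 of the 101 genes (15.8%), beside 20.4% of all autosomal genes with such peaks in both lists. The lower numbers in OVA F1 were thus found at coding genes as well, and a difference between the libraries in depth or enrichment cannot be told apart from one between the groups of mice.

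**Figure D4:**
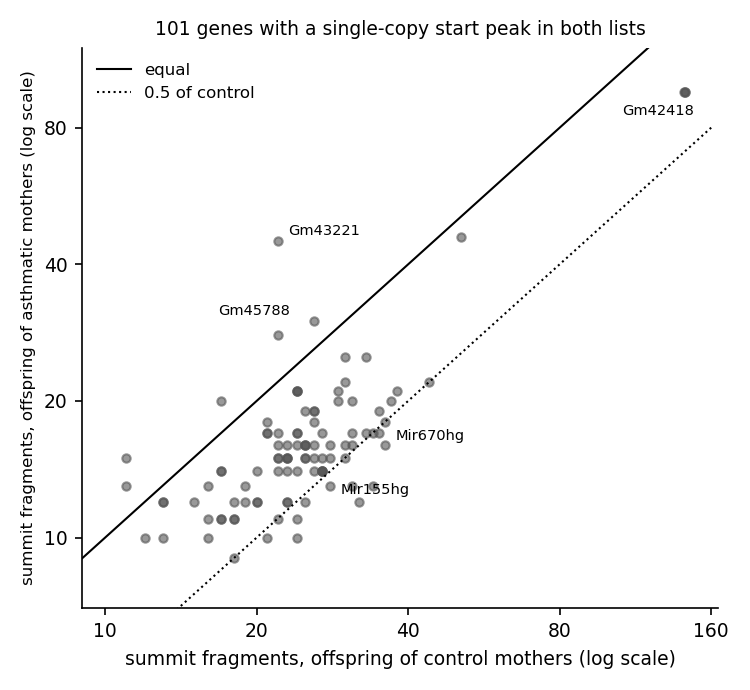
Fragments at the summit of the single-copy start peak in PBS F1 (horizontal axis) and OVA F1 (vertical axis), both on log scales, for 101 separate long noncoding genes; lines mark equal numbers and 0.5 of the control value. 95 genes lie below the line of equal numbers and 6 above it, of which Gm43221 is farthest from it.

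The 6 genes with more fragments in OVA F1 were named after their values were seen. Gm43221 had 22 fragments (13.8 to 33.3) in PBS F1 and 45 (32.8 to 60.2) in OVA F1. Gm26520 had 22 and 28, Gm45788 had 26 and 30, Gm49472 had 17 and 20, 2210011K15Rik had 11 and 15 and D230017M19Rik had 11 and 13. For D230017M19Rik the peaks of both lists lay at different starts, so its values do not compare 1 place. The counting intervals of Gm43221 met only at their ends, and those of Gm26520, Gm45788 and Gm49472 overlapped widely. Masked repeats made up 85.8% of the peak of Gm43221, the repeat printed above, in OVA F1. They also covered 99.7% of the peak at Gm26520, 98.6% at Gm45788, 64.9% at Gm49472 and 74.2% at 2210011K15Rik, and none of the peak at D230017M19Rik. The median over the 131 single-copy start peaks of that list was 0%, and at coding starts 0% as well. The part of repeated sequence in these 6 values was not tested.

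The 8 genes with the highest −log10 q in PBS F1 were marked in both lists. Mir670hg, the host of miR-670, had 36 fragments (25.2 to 49.8) in PBS F1 and 18 (10.7 to 28.4) in OVA F1, at an inner start 86003 bp from its 5′ end. Gm5493 had 36 and 16 fragments, 2900076A07Rik 32 and 12, and 1700020I14Rik 35 and 17. Gm45605 had 34 and 13, C030034I22Rik 33 and 25, 2700038G22Rik 30 and 16, and Pvt1 31 and 17. These genes were chosen by their PBS F1 values, so the order of the 2 numbers is no finding. The 8 genes with the highest −log10 q in OVA F1 were a mixed group, with Gm43221, Gm45788, Gm26520 and Gm49472 of the repeat-bearing peaks above beside C030034I22Rik, 6720427I07Rik with 25 fragments against 30, Gm26660 with 21 against 24 and 1700096K18Rik with 20 against 29 in PBS F1. Their CpG ratios ranged from 0 at Gm45788 to 0.970 at Gm26520, while those of the first 8 ranged from 0.423 to 0.860.

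Genes with a single-copy start peak in 1 list only had moderate peaks. The 85 genes marked in PBS F1 alone had a median of 17 fragments, between 11 and 27. The highest −log10 q among them belonged to Snhg7os with 26 fragments, Gm26734 with 25, Fbxl12os with 24, Gm44970 with 25 and Gm11527 with 27, of which all but Gm26734 had a CpG ratio above 0.6. Over all 85 genes 29 had a ratio of 0.6 or more, and of the 11 genes marked in OVA F1 alone 4 did. The 11 genes marked in OVA F1 alone had a median of 14 fragments, between 9 and 17, and 5 of their peaks had the smallest width of the list, 156 bp. Gm35281 had 16 fragments, Gm15792 had 15, A730035I17Rik had 14, Gm5784 had 17 and AC121513.1 had 13. No value of the other list is known at these places, since a peak list gives none below its threshold.

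A list of 99 known long noncoding genes was set beside the peaks to see which familiar RNAs were marked. Of its genes 38 were separate by the rule, and 17 of them (44.7%, 28.6 to 61.7%) had a single-copy start peak in PBS F1 and 10 (26.3%, 13.4 to 43.1%) in OVA F1, against 2.80% and 1.71% of all separate genes. None had a peak in OVA F1 alone. The list was drawn up with earlier results of these data known, so these shares are a description.

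All 4 genes listed by name as hosts of small nucleolar RNAs, which such genes carry in their introns, had a start peak in each library. In the annotation Snhg20 held a microRNA gene and no snoRNA gene, and of the 37 separate genes that held one, 5 were marked in PBS F1 and 4 in OVA F1. Snhg12 had 30 fragments (20.2 to 42.8) in PBS F1 and 15 (8.40 to 24.7) in OVA F1. Snhg6 had 26 and 18 fragments, Snhg20 had 24 and 17, and Epb41l4aos had 20 and 12. Neat1, the scaffold of paraspeckles, had 27 and 14 fragments, with a peak of 1260 bp in PBS F1 and 2 shorter peaks in OVA F1. Malat1, the abundant RNA of nuclear speckles, had no start peak in either list although its 5′ end had a CpG ratio of 0.651. All 5 of the marked genes had fewer fragments in OVA F1, as did 95 of the 101 separate genes with both values, and the intervals of both libraries overlapped at each.

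Of 7 microRNA hosts, 4 were marked. Mir155hg, the host of miR-155 that is induced when lymphocytes are activated, had 28 fragments (18.6 to 40.5) in PBS F1 and 13 (6.92 to 22.2) in OVA F1. Mir17hg, the host of the miR-17 cluster of growth-promoting microRNAs, had 23 and 15 fragments at summits placed at -864 and -868 bp, upstream of its start. Mir142hg, the host of the blood cell microRNA miR-142, had 26 fragments in PBS F1 and no start peak in the other list. Its peak stood on a high background of 8.42 fragments, so that its fold was 2.87. Mir124a-1hg, the host of the neuronal miR-124, had 13 fragments in PBS F1 alone. Mir9-3hg, Carmn and Dnm3os, which host microRNAs of brain and mesenchyme, had none. Going by annotation instead of by name, 72 separate long noncoding genes held a microRNA gene on their own strand, and 15 of them (20.8%, 12.2 to 32.0%) had a single-copy start peak in PBS F1 and 10 (13.9%, 6.87 to 24.1%) in OVA F1. For the 37 genes that held a snoRNA gene the shares were 13.5% (4.54 to 28.8%) and 10.8% (3.03 to 25.4%), and for the 6751 genes with neither 2.55% and 1.53%.

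Among regulators of immune cells and growth, 6 of 13 genes were marked. Lncpint, a target of p53, had 38 fragments (26.9 to 52.2) in 1 of 3 start peaks in PBS F1 and 21 (13.0 to 32.1) in 1 of 2 in OVA F1. Pvt1, which lies beside Myc with its nearest coding start 50564 bp away, had 31 fragments (21.1 to 44.0) and 17 (9.90 to 27.2). Gm14005, known as Morrbid, a regulator of the lifespan of myeloid cells, had 17 and 11 fragments in peaks that did not overlap, at inner starts of low CpG ratio, 0.251 and 0.286. AW112010, an RNA of activated immune cells, had 19 fragments, Trp53cor1, also called lincRNA-p21, had 16 and Dubr had 21, each in PBS F1 and with no start peak in OVA F1. Ifngas1, which adjoins the interferon gamma gene of T helper 1 cells, had no start peak in either list, nor had Nron, Ptgs2os2, Mirt1, Bach2os, Bach2it1 or Lockd.

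Of 6 imprinted genes, 2 were marked in PBS F1 and none in OVA F1, while of all 192 separate genes marked in PBS F1 85 had no start peak in OVA F1. Kcnq1ot1 and Airn, antisense RNAs made from the paternal chromosome that silence their neighbours, had 18 and 12 fragments in PBS F1 and no start peak in OVA F1. H19, Meg3, Mirg and Peg13 had none in either list. None of 6 developmental genes, Hotair, Hoxaas3, Hoxb3os, Rmst, Miat and Bvht, had a start peak in either list, which allows a share of up to 45.9%, with CpG ratios between 0.171 at Rmst and 0.572 at Hoxaas3.

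**Figure D5:**
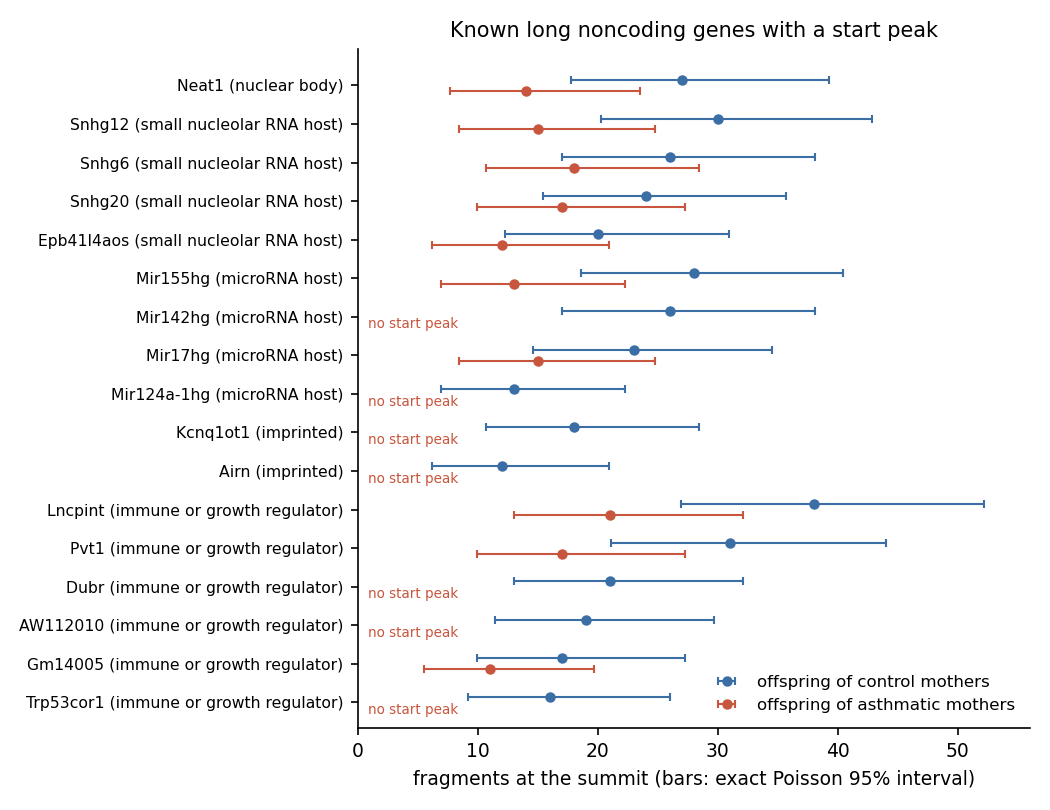
Fragments at the summit of the start peak (horizontal axis) of the 17 known long noncoding genes that had one, grouped by kind, in PBS F1 (offspring of control mothers, blue) and OVA F1 (offspring of asthmatic mothers, red); bars are exact Poisson 95% intervals, and genes without a start peak in OVA F1 are marked as such. At all 10 genes with both values the number is higher in PBS F1, and the intervals of both libraries overlap. At Gm14005 the 2 peaks lie at different starts.

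A list of 61 genes of ILC2 biology served to look for marked noncoding neighbours. Within 100 kb of a start of these genes lay 51 separate long noncoding genes, beside 31 of the 61. Of these, 5 (9.80%, 3.26 to 21.4%) had a single-copy start peak in PBS F1 and 4 (7.84%, 2.18 to 18.9%) in OVA F1, against 2.80% and 1.71% of all separate genes. All separate genes include those over 100 kb from any coding start, which were marked less often, as given above. Among the 5 were also Gm15655 and Gm12223, near coding promoters, and 2310001H17Rik and Gm47861, which shared a peak. No excess near ILC2 genes can be read from these shares. The other noncoding neighbours, among them Gm13262 beside Gata3, Gm15511 beside Rora and A630014C17Rik beside Tcf7, had none. Gm15655, 2018 bp from a start of Maf, a transcription factor of type 2 cells, had 37 fragments in PBS F1 and 20 in OVA F1, within the domains given above. Gm12223, 2067 bp from a start of Csf2, which encodes the cytokine GM-CSF, had 21 and 17 fragments. Both genes lay just outside the 2000 bp limit, and the peaks of Gm12223 were 793 and 882 bp from a start of Csf2, those of Gm15655 1313 and 1223 bp from one of Maf, so neither can be told apart from the coding promoter. Near Cd69, an early activation receptor, the same peak counted for 2310001H17Rik and Gm47861, with 24 and 21 fragments, 36641 and 37090 bp from Cd69. Gm26692, 36333 bp from Gfi1, a repressor needed by ILC2s, had 15 fragments in PBS F1 and no start peak in OVA F1. In PBS F1, 132 of 3898 separate genes (3.39%, 2.84 to 4.00%) were marked where the nearest coding gene had a single-copy start peak and 60 of 2960 (2.03%, 1.55 to 2.60%) where it had none. In OVA F1 the shares were 1.97% (1.52 to 2.51%) and 1.48% (1.11 to 1.92%), and their intervals overlapped.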

How the data were processed

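H3K4me3 CATCH-seq peak lists of lung ILC2s from 8-week-old offspring were used, 1 library per group. After trimming, the authors mapped read pairs to mm10 (GRCm38) with Bowtie2 and removed PCR duplicates. No peak caller or threshold for these lists is given in the sources used here, and the reporting summary of the study states that no ChIP-seq peaks were called, although lists were deposited. The authors' deposited columns are a score, a fold (a ratio of summit signal to background) and the p-value and q-value as −log10, besides the summit offset. The lists held 42126 and 51610 peaks and are not scaled to each other, and read totals were not used here.

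Peak positions were counted from 1. Starts came from GENCODE vM21, and a peak was counted for every gene with a start within 1000 bp, so that 13 and 8 start peaks counted for more than 1 separate gene. The fold and −log10 p of each summit were solved for its fragments and background under a Poisson model with 1 added to both in the fold, assuming no control sample. They came out whole, within 0.02, for 100% of peaks. They are derived values, not the authors'. Summits were called copied when their 75 bases occurred at more than 1 place on either strand of the 21 assembled chromosomes. Sequences were read from GRCm38. Peaks were shared from 1 bp of overlap and joined to domains up to 1000 bp apart.

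With 1 library per group no test was made. Shares have exact Clopper-Pearson 95% intervals, medians order-statistic intervals and fragments exact Poisson intervals, all for counting error only. PCR duplicates were removed by position, without molecular identifiers. The genes and lists were chosen with earlier results of these data known. Genes named were those of the known list with a start peak, per list the 8 with the highest −log10 q, the 5 with the widest domains and the 5 with a peak in that list only, and those within 100 kb of an ILC2 gene. The overlaps, distances, solved fragments and copy counts were tested on simulated data. Python 3.11.15, numpy 2.4.6, pandas 2.3.3, scipy 1.17.1, numba 0.67.0 and matplotlib 3.10.9 were used. The coverage tracks were not used here.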

Additional observations from a re-analysis of the deposited data

How the results depend on the processing

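Of 63 values under other settings, 45 stayed within the counting interval of the main value, 18 moved outside it, and the direction of no median turned. Values are given for PBS F1 and then OVA F1, the offspring of control and of asthmatic mothers. With peaks within 500 bp, 3.30% and 2.61% of genes had a start peak and 25.3% and 42.1% of start peaks were copied. Within 2000 bp, 5.83% and 5.50% of genes had a start peak and 3.44% and 2.07% a single-copy one. With a −log10 q of at least 5, 3.12% had a start peak and 1.40% a single-copy one in OVA F1. When each list was limited to its 10000 strongest peaks by −log10 p, 1.21% and 0.642% of genes had a start peak, 27.4% and 51.2% of start peaks overlapped the other list, and 20.2% and 65.1% were copied. With an overlap of at least 50% of both peaks, 38.6% and 43.3% overlapped. The cause of these moves was not tested. In all these settings, and with the 5′ end alone, a coding limit of 5000 bp, every transcript of a coding gene as a coding start, lincRNA alone and 51 bases at the summit, whichever of them were run for a result, the share of genes with a start peak, single-copy or any, was higher in PBS F1, and the shares of copied and of overlapping peaks were higher in OVA F1. For single-copy start peaks, the settings with every coding transcript and with 51 bases were chosen after seeing the data, as was the limit to overlapping peaks for the fragment ratio, which gave a median of 0.640 over 95 genes. No paired analysis was possible because each group had 1 library. Without read totals, a missing peak may reflect depth as well as a missing mark.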
